A study of Mus musculus with 6 samples.

Results

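The 10 genes Mitf, Sox10, Ednrb, Edn3, Kit, Kitl, Met, Cd44, Nrp2 and Gsta4 were examined in the cochlear lateral wall of old and young mice. They were chosen by name, with earlier results of these data known, so their counts beside those of all genes are a description. The choice took neural crest and melanocyte transcription factors, receptors and ligands, and further genes of strial intermediate cells, out of 18193 genes with a single symbol on the array. All probe sets annotated to exactly 1 of these symbols were taken, which gave 29 of the 45037 probe sets tested. The lateral wall bounds the cochlear duct on its outer side, with the spiral ligament behind the stria vascularis. Samples came from aged CBA/CaJ mice of 1.5 years (OldAdult, 3 arrays) and from CBA/CaJ mice aged 1 to 3 months (YoungAdult, 3 arrays). No transgene or treatment is named for either age, mice of both sexes were used, and all were bred in-house in low noise. The labels do not say whether a sample is 1 animal or a pool, and p-values then cover only sample-to-sample spread, which may be technical. Values are log2 signals of 1-colour Affymetrix arrays, differences are old minus young with their standard error (SE) from limma, and means are given ± SD with n = 3 arrays per age. In such bulk tissue, fewer cells of a type and less RNA per cell cannot be told apart.

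Intermediate cells of the stria vascularis are melanocytes that descend from the neural crest, and their potassium channel Kcnj10 is needed for the endocochlear potential that drives hair cell transduction. Sox10 and Mitf are the transcription factors that specify and maintain pigment cells. The ligand endothelin 3 (Edn3) acts on the receptor Ednrb, and stem cell factor (Kitl) acts on the receptor tyrosine kinase Kit, and mutations in these genes cause white spotting in mice, in several cases with deafness from loss of strial melanocytes.

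The endothelin receptor gene Ednrb was lower in old tissue on all 3 of its probe sets, by 0.36 to 1.01 log2. Sox10 was higher on 1 of its 3 probe sets, by 0.38, and Nrp2, a co-receptor for class 3 semaphorins and VEGF-C, was higher on 1 of its 4, by 0.42. Mitf lay lower on every old array on both probe sets, at -0.38 and -0.25, but did not pass the test. The other 6 genes, Edn3, Kit, Kitl, Met, Cd44 and Gsta4, did not pass on any probe set. In all, 5 of 29 probe sets passed a limma adjusted p of 0.05 (17.2%), 3 lower and 2 higher, where 4.71% of all probe sets passed, 2.84% lower and 1.86% higher. These 5 belong to 3 genes, and probe sets of 1 gene measure the same locus, so they do not count as separate observations. With each gene represented by its brightest probe set, Ednrb and Sox10 were the 2 of 10 that passed, 1 lower and 1 higher, against 4.78% of all genes, 2.33% lower and 2.45% higher. Values of the old and young arrays did not overlap for 10 of the 29 probe sets (34.5%), 6 lower and 4 higher in old tissue, against 23.8% of all probe sets, 11.3% lower and 12.5% higher. Among the brightest probe sets this held for 4 of 10 genes, against 26.7% of all genes.

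**Figure D1:**
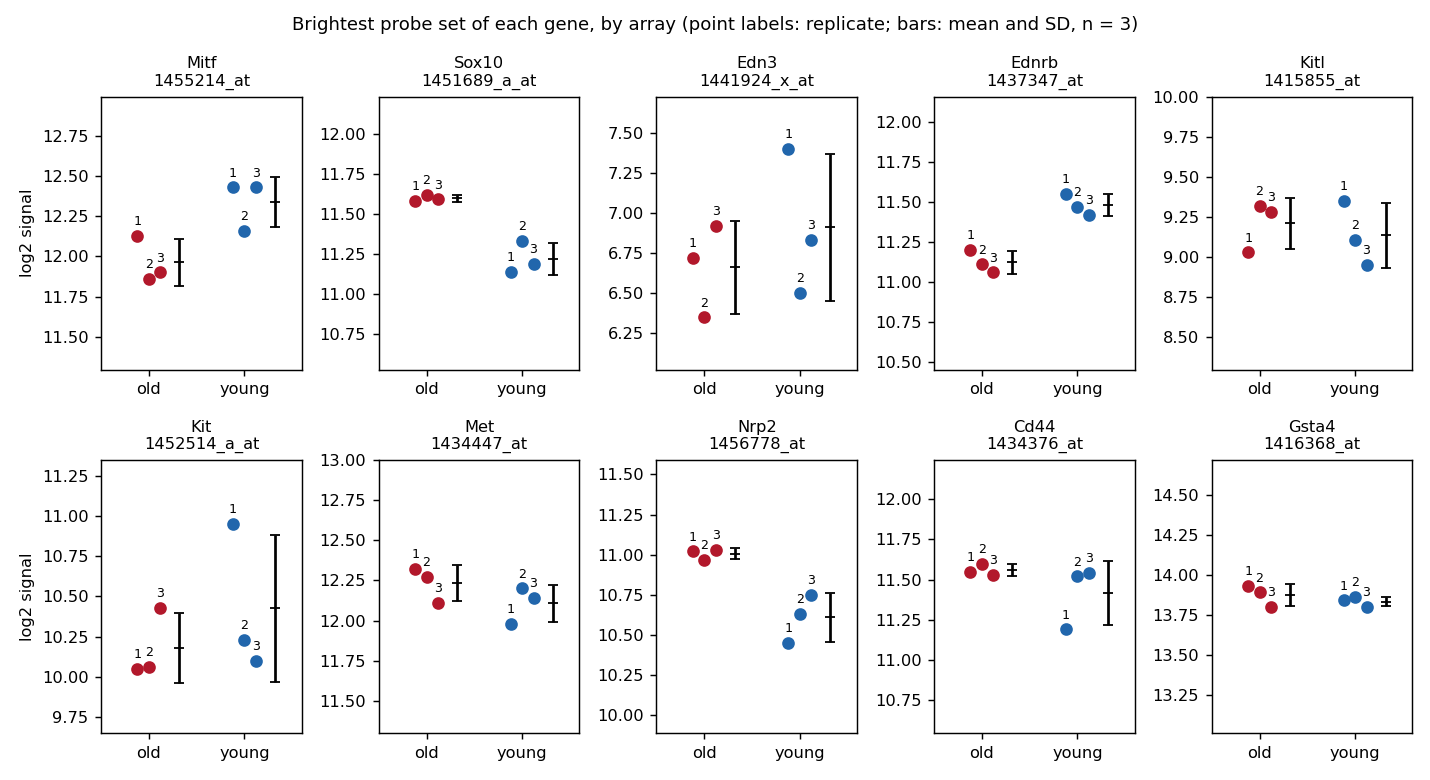
Log2 signal of the brightest probe set of each of the 10 genes (vertical axis, each panel spanning the same number of log2 units) in 3 old and 3 young arrays, with the mean and SD beside the points and replicate numbers above them. Old points lie below all young points for Mitf and Ednrb and above them for Sox10 and Nrp2, and Kit and Edn3 each have a high value in young replicate 1.

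The arrays had medians of 6.26 to 6.3, and the median over all tested probe sets of their mean signal was 6.28. Of the 29 probe sets, 19 lay above that median and 10 below it. Xist, which is transcribed from the silenced X chromosome of females, had a log2 signal of 12.24 to 12.65 in old arrays, and in young arrays 12.31, 6.06 and 11.95, with the low value in replicate 2. In this that array stood apart from the other 5, and results are also given without it. Cochlear lateral wall markers were present on all arrays. The mean log2 signal of 7 strial marginal cell markers was 11.40 to 11.53 in old and 11.21 to 11.34 in young arrays, and that of 7 fibrocyte markers was 13.43 to 13.49 in old and 13.46 to 13.50 in young arrays. Of these marginal cell and fibrocyte markers, 0 passed limma's adjusted p in either direction, and 2 marginal cell markers and 1 fibrocyte marker had an unadjusted p under 0.05. The 2 were Kcne1 (0.33) and Esrrb (0.39), both higher in every old array. All 7 marginal cell differences were positive, with a median of 0.14. Of the 7 fibrocyte differences 3 were positive, with a median of -0.01, where 10537 of all 18193 genes had a positive one. On the list of 6 T and B cell genes, the T cell gene Cd3g, which lay below the median signal, rose. Ptprc, which all leukocytes make, macrophages included, also rose. The T cell genes Cd3e and Cd2 did not pass, at 0.10 and 0.27, nor did the B cell genes Ms4a1 and Cd79a, at -0.48 and 0.07. Also, the bone genes Phex, Mepe and Dmp1 fell, 3 of 6 measured, with a bone list mean of 7.22 to 8.07 in old and 8.42 to 8.91 in young arrays. The bone genes Ibsp, Sp7 and Alpl did not pass, at -2.25, -0.04 and 0.32. The calls of Ptprc, Mepe and Phex were lost on leaving out at least 1 array.

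Pigment cell RNA was examined first as a frame for the regulators. The melanin synthesis enzyme gene Dct had signals of 14.07, 14.09 and 14.04 in old arrays and 14.03, 14.06 and 14.10 in young arrays. Kcnj10 had 12.73, 12.78 and 12.77 in old arrays and 12.67, 12.76 and 12.92 in young arrays. Both genes were bright and the ages overlapped. Tyr, which encodes tyrosinase, averaged 12.25 ± 0.12 in old and 12.08 ± 0.14 in young arrays, Mlana, a melanosomal protein gene, 11.83 ± 0.08 in old and 11.52 ± 0.32 in young arrays, and the potassium channel gene Kcnj13 11.78 ± 0.13 in old and 11.42 ± 0.21 in young arrays. In contrast, the pigment genes Tyrp1 and Pmel lay below the median signal, at 4.08 to 4.33 and 6.0 to 6.20 in old and 4.01 to 4.22 and 5.90 to 6.11 in young arrays. Of these 7 markers, 0 passed, and the limma adjusted p ran from 0.138 for Kcnj13 to 0.990 for Dct. At an unadjusted p under 0.05, 1 of the 7 passed. The mean of the 7 markers was 10.40 to 10.50 in old and 10.13 to 10.38 in young arrays, a difference of 0.16 (exact 2-sided permutation p = 0.1, the smallest that 3 against 3 arrays can give).

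Among the transcription factors, Mitf, the basic helix-loop-helix factor that directs melanocyte fate, had signals of 12.13, 11.86 and 11.90 in old arrays and 12.43, 12.16 and 12.43 in young arrays on its brighter probe set, 1455214_at. All old values lay below all young values, with old replicate 1 just under young replicate 2. The mean was 11.96 ± 0.15 in old and 12.34 ± 0.16 in young tissue, a difference of -0.38 ± 0.11 (95% confidence interval -0.63 to -0.13), which did not pass (limma adjusted p = 0.0970). The second probe set, 1422025_at, had 6.58, 6.74 and 6.60 in old arrays and 7.06, 6.78 and 6.83 in young arrays. Its groups again did not overlap, and it did not pass at -0.25 ± 0.10 (limma adjusted p = 0.206). Over all alternatives the adjusted p of 1455214_at ran from 0.0210 to 0.30, and it passed with array weights (0.0210), with an intensity trend and robust variance (0.0365) and without young replicate 2 (0.0397). Mitf is also active in osteoclasts, where 2 of 7 markers rose, Acp5 and Atp6v0d2, and 0 fell, and the list mean was 5.69 to 5.83 in old and 5.35 to 5.51 in young arrays. The list did not move as one: the bone collagenolytic protease gene Ctsk lay lower in every old array, at 8.71, 8.84 and 8.65 in old and 9.24, 9.12 and 8.96 in young arrays (-0.37, limma adjusted p = 0.0706), the dim Calcr had -0.23, and the mean was carried mostly by the dim Atp6v0d2 (1.73). The part of osteoclast RNA in the Mitf values was not tested. The Acp5 call was lost without old replicate 1, old replicate 3 or young replicate 3 (limma adjusted p up to 0.0812).

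RefSeq lists 3 starts for Mitf in GRCm38.p6, and the most downstream of them is shown because pigment cells use the most 3′ promoter of this gene, which is known to be driven by CREB, LEF1, PAX3 and SOX10. The promoter of Ednrb is shown as that of the receptor that was lower, and that of Nrp2 as that of a gene that was higher. Each sequence is the 250 bases before the start, 5′ to 3′ on the gene's strand, in lower case with motif matches in capitals. The regions are chr6:97991533-97991782 on the plus strand for Mitf, chr14:103843702-103843951 on the minus strand for Ednrb and chr1:62703067-62703316 on the plus strand for Nrp2.
Mitf: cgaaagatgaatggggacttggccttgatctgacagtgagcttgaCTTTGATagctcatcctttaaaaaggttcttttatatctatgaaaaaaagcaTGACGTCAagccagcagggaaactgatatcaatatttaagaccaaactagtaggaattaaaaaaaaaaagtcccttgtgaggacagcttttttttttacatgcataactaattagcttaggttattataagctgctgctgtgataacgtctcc
Ednrb: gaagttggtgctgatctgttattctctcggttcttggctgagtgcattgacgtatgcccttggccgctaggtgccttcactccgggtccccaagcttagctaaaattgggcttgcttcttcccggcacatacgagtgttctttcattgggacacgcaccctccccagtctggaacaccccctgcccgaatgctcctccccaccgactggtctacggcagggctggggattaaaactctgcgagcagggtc
Nrp2: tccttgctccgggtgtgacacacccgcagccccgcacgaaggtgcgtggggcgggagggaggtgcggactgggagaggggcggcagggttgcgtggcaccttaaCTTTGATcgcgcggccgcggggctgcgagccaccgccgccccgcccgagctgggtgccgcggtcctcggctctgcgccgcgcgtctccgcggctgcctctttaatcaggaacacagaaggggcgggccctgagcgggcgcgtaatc
Capitals in Mitf mark the LEF1 letters CTTTGAT, which begin 205 bases before the start, and the cAMP response element TGACGTCA, which begins 153 bases before it. In Nrp2 they mark CTTTGAT, 146 bases before the start. Searches on both strands covered TGACGTCA, CTTTGAT, the E-boxes CATGTG and CACGTG that MITF can bind, and the SOX letters ACAAAG, and no match overlapped another. Of 32851 promoter windows of this length, 1.55% hold TGACGTCA, 3.21% CTTTGAT, 12.3% CATGTG, 6.02% CACGTG and 16.5% ACAAAG. None of these letters stood in the Ednrb window, and CACGTG stood in the window of Met. Entries were found for 8 of the 10 genes, without Sox10 and Gsta4. A match is a description of the letters and says nothing of binding in this tissue.

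Sox10, the neural crest factor that activates Mitf and is kept in melanocytes and Schwann cells, had signals of 11.58, 11.62 and 11.59 in old arrays and 11.14, 11.33 and 11.19 in young arrays on its brightest probe set, 1451689_a_at. All old values were higher, and the old arrays lay within 0.04 of each other. Sox10 rose by 0.38 ± 0.08, to 11.60 ± 0.02 in old against 11.22 ± 0.10 in young tissue, 1.30-fold (limma adjusted p = 0.0382). The other 2 probe sets, 1424985_a_at and 1425369_a_at, did not pass, at 0.07 ± 0.09 and 0.06 ± 0.08 (limma adjusted p = 0.763 and 0.794), with confidence intervals up to 0.29 and 0.24. Their means were 7.47 ± 0.10 and 6.29 ± 0.09 in old and 7.39 ± 0.12 and 6.24 ± 0.01 in young arrays. The gap of each to the brightest probe set differed between the ages without overlap, by -0.30 and -0.32 (exact 2-sided permutation p = 0.1 for each, the smallest possible). Averaged over its 3 probe sets, Sox10 had a difference of 0.17 (limma adjusted p = 0.175 over genes) and did not pass. The call on 1451689_a_at was also lost when any array except young replicate 2 was left out, with a limma adjusted p of up to 0.147. Among 9 measured Schwann cell markers, Pmp22, a myelin protein gene also present in fibroblasts, fell by 0.51 (limma adjusted p = 0.0265) and 0 rose, and the list mean was 9.59 to 9.72 in old and 9.66 to 9.67 in young arrays. The Pmp22 call was lost without any 1 old array or without young replicate 1, with an adjusted p of up to 0.120. Over the list, 6 of 9 differences were positive, with a median of 0.08, where 10537 of all 18193 genes had a positive one. Cnp, a myelin enzyme gene, was higher in every old array without passing (0.29, limma adjusted p = 0.0886), and the neuregulin receptor gene Erbb3 and the cadherin gene Cdh19 had 0.24 and 0.21. The glial genes S100b (13.86 to 13.93 in old, 13.95 to 14.01 in young) and Mbp (9.67 to 9.86 in old, 9.60 to 9.88 in young) were well above the median signal. The part of glial RNA in the Sox10 result was not tested.

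Ednrb encodes the endothelin B receptor, which neural crest cells need to reach the skin and the ear, and which is also made by glia and endothelium. On the brightest probe set, 1437347_at, it had 11.20, 11.11 and 11.06 in old arrays and 11.55, 11.47 and 11.42 in young arrays. The groups did not overlap, and the values spanned 0.14 in old and 0.13 in young arrays. Here Ednrb fell by 0.36 ± 0.08, to 11.12 ± 0.07 in old against 11.48 ± 0.07 in young tissue (limma adjusted p = 0.0443). The probe set 1423594_a_at had 6.56, 6.48 and 6.28 in old arrays and 7.47, 7.48 and 7.41 in young arrays. Its fall of 1.01 ± 0.09, to 0.495 times the young level, was the largest in size among the 29 probe sets (limma adjusted p = 0.00191). The third, 1426314_at, had 6.49, 6.34 and 6.40 in old arrays and 6.75, 6.81 and 6.90 in young arrays, and fell by 0.41 ± 0.08 (limma adjusted p = 0.0308). Thus the 3 probe sets moved in 1 direction with unequal size. The gap between 1423594_a_at and the brightest probe set was -4.64, -4.63 and -4.78 in old and -4.08, -3.99 and -4.01 in young arrays, a difference of -0.66 (exact 2-sided permutation p = 0.1, the smallest possible). The gap of 1426314_at differed by -0.05 and its groups overlapped (exact 2-sided permutation p = 0.7). Which exons the 3 probe sets read was not analysed here.

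The fall of Ednrb on 1423594_a_at passed under every alternative scaling, variance model and filter, with the replicate block, and without each array in turn, with a limma adjusted p of at most 0.0153. The calls of the other 2 probe sets depended on single arrays. That of 1426314_at was lost on leaving out any array except young replicate 2 (adjusted p up to 0.132), and that of 1437347_at on leaving out any 1 of the 6 arrays (0.0568 to 0.191). Averaged over its 3 probe sets, Ednrb fell by 0.59 (limma adjusted p = 0.00347 over genes). Of 8 endothelial markers, 0 passed by limma, with 3 at an unadjusted p under 0.05, and their mean was 8.13 to 8.23 in old and 7.99 to 8.17 in young arrays.

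**Figure D2:**
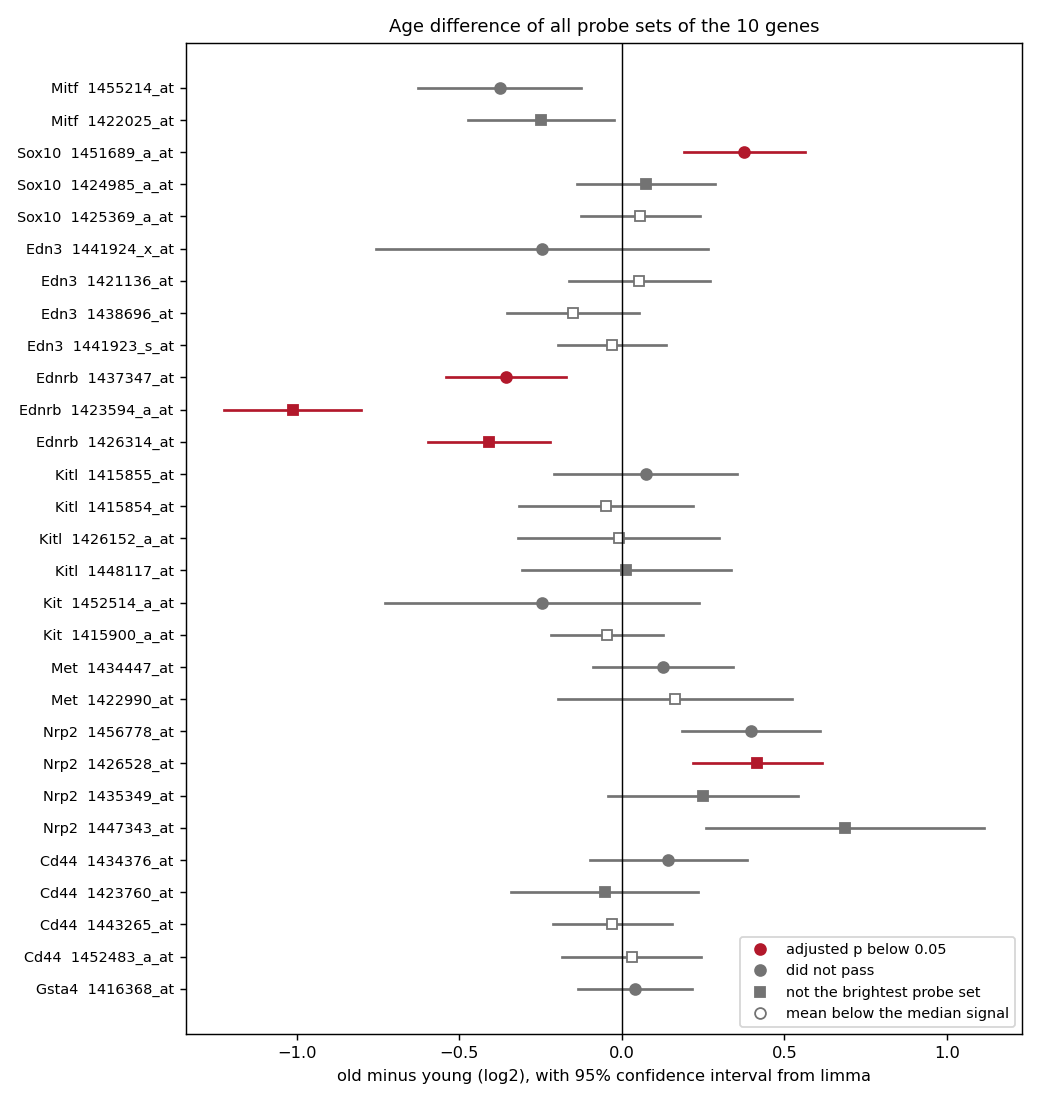
Old minus young difference in log2 signal (horizontal axis) of all 29 probe sets of the 10 genes, with 95% confidence intervals from limma. Circles mark the brightest probe set of a gene, open symbols mark probe sets with a mean below the median signal of 6.28, and red marks the 5 that passed, 3 of Ednrb below 0 and 1 each of Sox10 and Nrp2 above it.

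Edn3, a ligand of Ednrb, was dim on 3 of its 4 probe sets, with signals of 4.25 to 5.42 in old and 4.27 to 5.68 in young arrays. The fourth, 1441924_x_at, whose suffix marks probes that may bind other transcripts, had 6.72, 6.35 and 6.92 in old arrays and 7.40, 6.50 and 6.83 in young arrays. The groups overlapped and young replicate 1 was highest. Its difference of -0.25 ± 0.22 did not pass (95% confidence interval -0.76 to 0.26, limma adjusted p = 0.644), and the adjusted p of the other 3 was 0.427 to 0.890. One of them, 1438696_at, had groups that did not overlap, at 5.38, 5.34 and 5.42 in old and 5.68, 5.44 and 5.47 in young arrays, all below the median signal.

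Kit, the receptor tyrosine kinase for stem cell factor on melanocytes, mast cells and blood progenitors, had 10.05, 10.06 and 10.43 in old arrays and 10.95, 10.23 and 10.10 in young arrays on 1452514_a_at. The groups overlapped, and young replicate 1 stood above the other 5 arrays. The difference was -0.25 ± 0.21 (95% confidence interval -0.73 to 0.24, limma adjusted p = 0.621), and it was 0.015, of the opposite sign, without young replicate 1. The second Kit probe set, 1415900_a_at, lay below the median signal, at 5.48 ± 0.06 in old and 5.53 ± 0.02 in young tissue. Of 9 mast cell markers, 0 lay above the median signal and 0 passed by limma, also at an unadjusted p under 0.05. The brightest of them, the histidine decarboxylase gene Hdc, had 5.62 to 5.73 in old and 5.38 to 5.87 in young arrays, and the list mean was 4.37 to 4.58 in old and 4.38 to 4.68 in young arrays. Of 10 marrow myeloid and progenitor markers, 7 fell and 0 rose, and the smallest p belonged to the myeloperoxidase gene Mpo (-1.27 ± 0.14, limma adjusted p = 0.00393), while S100a8, Camp, Ngp and S100a9 had larger changes, of -1.78, -1.68, -1.62 and -1.62. All 7 are genes of neutrophils and their precursors. The progenitor genes Cd34 and Gata2 had differences of 0.01 and 0.15 and did not pass (limma adjusted p = 0.981 and 0.451). The list mean was 6.94 to 7.46 in old and 7.87 to 8.34 in young arrays, and young replicate 1 was the lowest young array on it. Of these 7 genes, 3 still passed without old replicate 1 or old replicate 3, 4 without young replicate 2 and 1, Mpo, without young replicate 3. The part of marrow RNA in the Kit values was not tested.

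Kitl, which encodes stem cell factor, the survival signal for Kit-bearing cells, had 9.03, 9.32 and 9.28 in old arrays and 9.35, 9.11 and 8.95 in young arrays on its brightest probe set, 1415855_at. The ages overlapped, and the difference of 0.07 ± 0.12 did not pass (95% confidence interval -0.21 to 0.35, limma adjusted p = 0.831). Its 3 other probe sets had differences of -0.05, -0.01 and 0.01, and the sign of all 4 turned in at least 1 alternative.

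Met, the receptor for hepatocyte growth factor, which intermediate cells carry and whose human counterpart is linked to hearing loss, had 12.32, 12.27 and 12.11 in old arrays and 11.98, 12.20 and 12.14 in young arrays on 1434447_at. The ages overlapped. The difference was 0.13 ± 0.09 (95% confidence interval -0.09 to 0.34, limma adjusted p = 0.550), and the dim second probe set, 1422990_at, had 0.16 ± 0.16 (limma adjusted p = 0.671).

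Nrp2 encodes neuropilin 2, a receptor of migrating crest cells that is also made by lymphatic endothelium and some macrophages. On 1426528_at it had 9.29, 9.33 and 9.44 in old arrays and 8.82, 8.98 and 9.01 in young arrays, with no overlap. Nrp2 rose by 0.42 ± 0.09 on this probe set, 1.33-fold (limma adjusted p = 0.0346). Its brightest probe set, 1456778_at, had 11.02, 10.97 and 11.03 in old arrays and 10.45, 10.63 and 10.75 in young arrays. It lay just outside the threshold at 0.40 ± 0.09 (limma adjusted p = 0.0506). The remaining probe sets also had positive differences that did not pass, 0.69 ± 0.19 on 1447343_at without overlap and 0.25 ± 0.13 on 1435349_at with overlap (limma adjusted p = 0.0807 and 0.344). Averaged over all 4, Nrp2 rose by 0.44 (limma adjusted p = 0.0480 over genes). The call on 1426528_at was lost on leaving out any array except young replicate 2 (adjusted p up to 0.157). The probe set 1456778_at passed after quantile normalization of the deposited values (0.0420), among probe sets above the median signal (0.0347), with an intensity trend and robust variance (0.0189) and with array weights (0.0311). For 1447343_at the adjusted p was 0.00800 without young replicate 2 and 0.0230 with array weights. Of 9 macrophage markers 2 rose, the lysozyme gene Lyz2 (1.56 ± 0.15, limma adjusted p = 0.00209) and Cd68 (1.16 ± 0.11, limma adjusted p = 0.00230), and 0 fell. Lyz2 has a near-identical copy, Lyz1, so its signal is not certain to be its own. The macrophage mean was 8.89 to 9.08 in old and 8.46 to 8.63 in young arrays, higher in old arrays as Nrp2 was, and Lyz2 and Cd68 carried most of this. Over the list, 7 of 9 differences were positive, with a median of 0.36, where 10537 of all 18193 genes had a positive one. Mrc1 and Csf1r had -0.32 and -0.08 and did not pass (limma adjusted p = 0.318 and 0.672). The part of macrophage RNA in the Nrp2 result was not tested. The 4 lymphatic endothelial markers had means of 7.09 to 7.26 in old and 7.20 to 7.39 in young arrays. Of these, 0 passed by limma, with 2 at an unadjusted p under 0.05.

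Cd44, the receptor for hyaluronan, had 11.55, 11.60 and 11.53 in old arrays and 11.19, 11.52 and 11.54 in young arrays on 1434376_at. The groups overlapped and young replicate 1 was the lowest. The difference of 0.14 ± 0.11 did not pass (95% confidence interval -0.10 to 0.39, limma adjusted p = 0.547), and the other 3 probe sets, 2 of them dim, had differences between -0.05 and 0.03. Gsta4, a glutathione transferase that clears the lipid peroxidation product 4-hydroxynonenal, had 13.93, 13.89 and 13.80 in old arrays and 13.84, 13.86 and 13.80 in young arrays. The ages overlapped, and the difference was 0.04 ± 0.08 (95% confidence interval -0.13 to 0.21, limma adjusted p = 0.855).

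**Figure D3:**
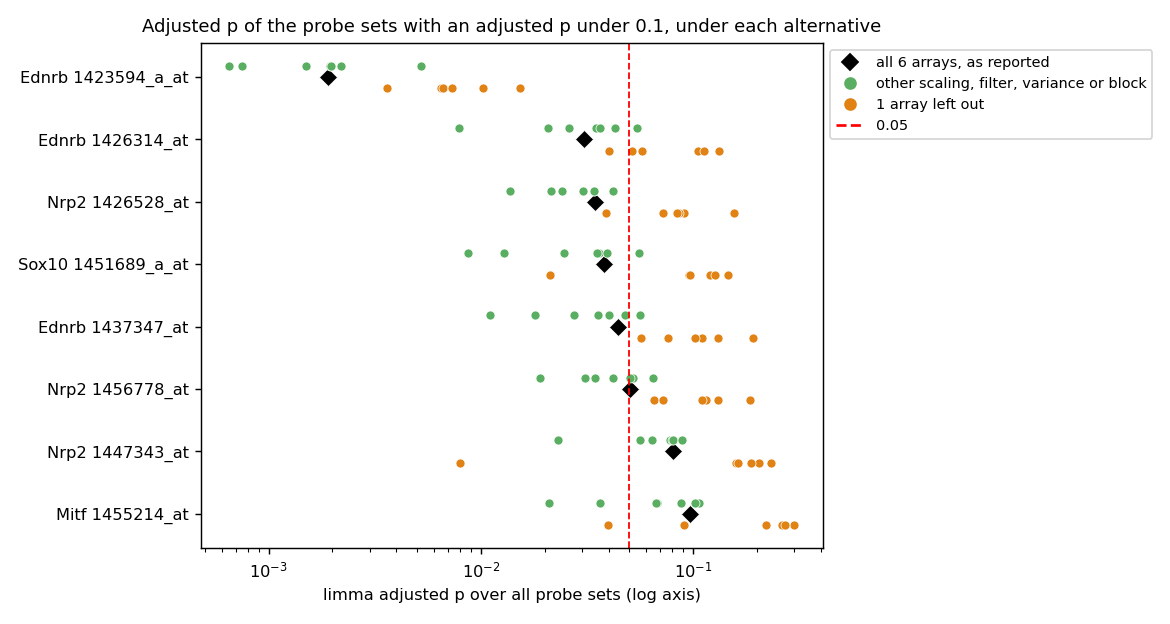
Limma adjusted p over all probe sets (horizontal log axis) of the 8 probe sets of the 10 genes with an adjusted p under 0.1, with all 6 arrays (diamonds), under other scalings, filters, variance models or the replicate block (green) and with 1 array left out (orange). All points of Ednrb 1423594_a_at lie left of the dashed line at 0.05, and those of the other 7 probe sets fall on both sides of it.

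To set the regulators against pigment cell RNA on the same arrays, the mean of the 7 melanocyte markers was subtracted from the brightest probe set of each gene within each array. On this scale Mitf was 1.63, 1.45 and 1.50 in old arrays and 2.30, 1.83 and 2.05 in young arrays, a difference of -0.53. Ednrb was 0.70, 0.70 and 0.66 in old arrays and 1.42, 1.14 and 1.04 in young arrays, a difference of -0.51. Neither pair of groups overlapped. Since the marker mean was 0.16 higher in old arrays, this scale lowers every difference by that amount, and 5 of the 7 markers are also MITF targets, so it is not independent of Mitf. Sox10 and Nrp2 remained higher in all old arrays, with differences of 0.22 and 0.24. For each of these 4 genes the exact 2-sided permutation p was 0.1, the smallest possible. The other 6 genes had overlapping groups, with exact permutation p of 0.3 to 0.8. Groups did not overlap for 29.5% of all genes on this scale, so 4 of 10 is read against that share.

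Genes that act with these factors were described by 8 pathway lists. Of 113 different measured genes, 1 rose and 5 fell (5.31%, where 4.78% of all genes passed), and the median difference of all genes was 0.03. The count of 6 was 1 without old replicate 1, old replicate 3 or young replicate 3, 4 without old replicate 2 or young replicate 1, and 14 without young replicate 2. Among 16 MITF relatives and pigment cell transcription factors, Zeb2 fell, 0 rose and the median was 0.01, with 3 genes at an unadjusted limma p under 0.05. Zeb2, a zinc finger repressor that melanocytes and their precursors need, had 8.75, 8.77 and 8.76 in old arrays and 9.53, 9.25 and 9.44 in young arrays (-0.65 ± 0.09, limma adjusted p = 0.00844). Its ages were clearly apart on this probe set, and its mean over all probe sets, -0.31, did not pass (limma adjusted p = 0.123 over genes).

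Of 15 pigment cell targets of MITF, 13 had a positive difference, as did 10537 of all 18193 genes, Gpnmb was the 1 that rose, and the list median was 0.18. At an unadjusted limma p under 0.05, 6 of the 15 passed. The share of all genes under this threshold was not counted, so the list counts at it, here and elsewhere, have no background. They are not read against 5%, since an unadjusted p of 0.0496 (Nf1, in the KIT signalling list) had an adjusted p of 0.259. Dct, Tyr, Tyrp1, Pmel and Mlana, 5 of the 15, are also among the melanocyte markers above. Gpnmb, a glycoprotein of melanosomes, macrophages and osteoclasts, had 12.25, 12.05 and 12.32 in old arrays and 11.55, 11.79 and 11.77 in young arrays (0.50 ± 0.10, limma adjusted p = 0.0337). The call was lost without old replicate 1, old replicate 3, young replicate 1 or young replicate 3 (adjusted p up to 0.144), and over its probe sets the mean difference of 0.29 did not pass (limma adjusted p = 0.165 over genes). Macrophage and osteoclast marker means, given above, were also higher in old arrays, and their part in the Gpnmb result was not tested. Lists of 9 endothelin pathway genes, 12 HGF and MET genes and 15 glutathione transferases had 0 calls by limma and medians of -0.04, 0.05 and 0.03. At an unadjusted p under 0.05 they had 2, 1 and 3 genes. The smallest p in each belonged to Rgs4, a regulator of G protein signalling (0.55, adjusted p = 0.0717), to Hgf, the ligand of Met (0.58, adjusted p = 0.198), and to Gstt1 (0.27, adjusted p = 0.111).

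In the KIT signalling list of 16 genes, Pik3r1, a regulatory subunit of phosphoinositide 3-kinase, fell by 0.73 (limma adjusted p = 0.0346), 0 rose and the median was -0.06. Of these 16 differences 3 were positive, where 10537 of all 18193 genes had a positive one. The list mean was 9.465 to 9.514 in old and 9.576 to 9.664 in young arrays. Pik3r1 had 10.68, 10.67 and 10.65 in old arrays and 11.78, 11.12 and 11.29 in young arrays, with the highest value in young replicate 1. Of 13 hyaluronan and CD44 genes, Ezr, which encodes the membrane-cytoskeleton linker ezrin, fell by 0.42 (limma adjusted p = 0.0319) and 0 rose, with a median of 0.04. Of 18 semaphorin and VEGF-C genes, the ligand gene Sema3d and the receptor gene Plxna2 fell by 0.54 and 0.51 (limma adjusted p = 0.0187 and 0.0165) and 0 rose, with a median of -0.02. Neither VEGF-C itself (Vegfc, 0.34, limma adjusted p = 0.105) nor semaphorin 3F (Sema3f, -0.19, limma adjusted p = 0.228), which bind Nrp2, passed. The calls of Sema3d and Plxna2 were lost without old replicate 1, old replicate 3 or young replicate 3, that of Pik3r1 without any 1 old array or young replicate 3, and that of Ezr without any array except young replicate 2 (adjusted p up to 0.132 over these 4 genes). Averaged over its probe sets, Ezr had -0.23 and did not pass (limma adjusted p = 0.114 over genes). At an unadjusted limma p under 0.05, the KIT, hyaluronan and semaphorin lists had 5, 3 and 7 genes.

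**Figure D4:**
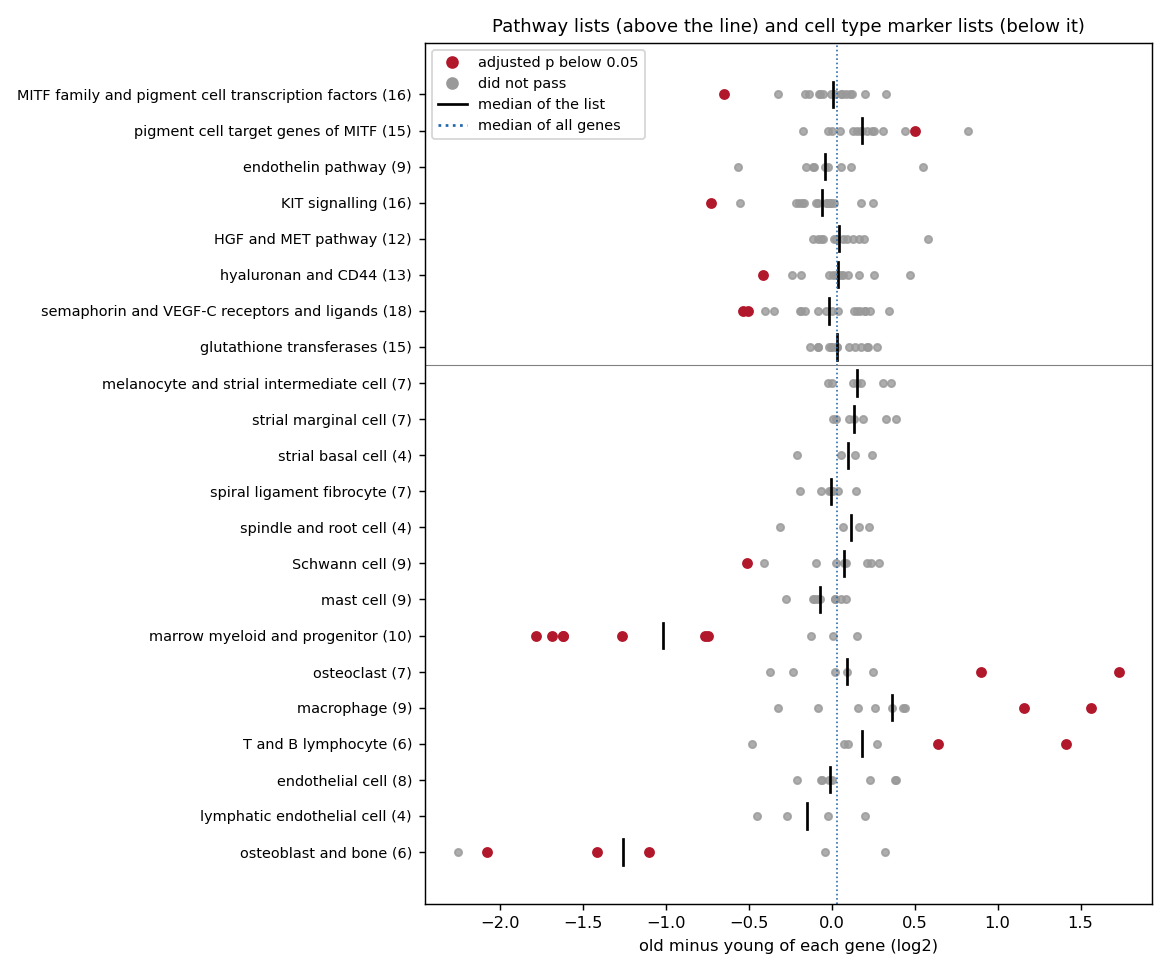
Old minus young difference in log2 signal (horizontal axis) of each measured gene in 8 pathway lists and 14 cell type marker lists, with the number of genes in brackets, red for genes that passed, a black bar at each list's median and a dotted line at the median of all genes, 0.03. Melanocyte, marginal, basal, fibrocyte, mast and endothelial markers have no red point, and 7 of 10 marrow myeloid markers are red on the left.

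The patterns most like Mitf over the 6 arrays, among 4359 genes with a range of at least 0.5 log2, were those of Ttbk1, Hif3a and Dennd3, with Pearson r of 0.993, 0.987 and 0.975. Their differences were -0.35, -0.52 and -0.37. For Sox10, the gene with the smallest p on its brightest probe set, they were Bbip1, Prmt3 and Acsl6, with r of 0.998, 0.998 and 0.997 and differences of 0.45, 0.44 and 0.42. Such r rest on 6 arrays that share the split by age, so these differences follow from the choice of the genes and are given as a description. Averaged over all probe sets of a gene they were -0.17 for Hif3a, 0.15 for Bbip1, 0.14 for Prmt3 and 0.31 for Acsl6.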

How the data were processed

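RNA of microdissected lateral wall was labelled with the Affymetrix 3′ IVT Express kit, which primes from the poly(A) tail, per the labels' protocols. Expression Console from Affymetrix, MAS5 and RMA are named in the submitters' processing notes, without a version, and which step each did is not given in the sources used here. The deposited table holds log2 signals of 45101 probe sets on 6 arrays, already on a common scale, from 2.66 to 14.76. A shift of most genes one way would be removed by such scaling. Background and scan batches were not examined, since the table holds no scanner values, and 3 arrays per age limit the precision.

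The 64 control probe sets were left out. GEO's platform annotation gave 34945 of the remaining probe sets 1 symbol, 932 several and 9160 none, and no gene was named from several. The symbols of all 29 probe sets described matched RefSeq through their Entrez identifiers. Promoter sequences came from RefSeq (GRCm38.p6). Differences were fitted with limma 3.58.1 in R 4.3.3 (lmFit, eBayes, age as the only term) on all 45037 probe sets, with Benjamini-Hochberg adjustment over all of them. The brightest probe set over the 6 arrays represented a gene, and the mean of its probe sets was an alternative, adjusted over 18193 genes. The fit was tested on simulated data. It called 25.7% of the simulated differences of 0.5 log2, 79.1% of those of 1 and 98.5% of those of 2. Of its calls, 4.05% were false. For differences of 0.5 or less, not passing is therefore weak evidence of no change. Named genes were all probe sets of the 10 genes, the gene of smallest p in each list and direction, all melanocyte markers, and the 3 genes of highest Pearson r with Mitf and with the gene of smallest p. Acp5, Atp6v0d2, Ctsk, Calcr, Cnp, Erbb3, Cdh19, Ms4a1, Cd79a, S100a8, S100a9, Camp, Ngp, Cd34, Gata2, Cd3g, Cd3e, Cd2, Ptprc, Phex, Mepe, Dmp1, Ibsp, Sp7, Alpl, Sema3d, Cd68, Mrc1, Csf1r, Vegfc, Sema3f, S100b and Mbp were named after their values were seen, as was the comparison of probe sets of 1 gene. Edn1, Edn2, Nf1, Kcne1 and Esrrb were likewise named after their values were seen. The genes and lists were chosen with earlier results of these data known. Alternatives were cyclic loess, median centring, quantile normalization of the deposited values, testing only probe sets above the median signal, array weights, an intensity trend with robust variance, a block for the replicate number, a stricter adjusted p of 0.01, and the fit without each array.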

Additional observations from a re-analysis of the deposited data

How the results depend on the processing

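Calls among the 29 probe sets changed with single arrays and with the variance model. The 5 called probe sets became 8 with array weights, 2 with the replicate block and 1 at an adjusted p of 0.01, and 1 to 6 on leaving out 1 array. The 2 genes called by their brightest probe set became 4 with an intensity trend and robust variance, 4 with array weights, 0 with the replicate block, 0 at an adjusted p of 0.01 and 0 to 2 on leaving out 1 array. The 2119 called probe sets in all became 4480 with array weights and 436 at an adjusted p of 0.01, and 515 to 3393 on leaving out 1 array. The 6 called pathway genes became 13 with array weights, 1 at an adjusted p of 0.01 and 1 to 14 on leaving out 1 array. The 4 genes whose level relative to melanocyte markers did not overlap were 4 or 5 on leaving out 1 array, and 4 in the other alternatives. The causes were not tested. Of 406 differences of the 10 genes under the alternatives, 345 kept direction and side of the threshold, 29 lost a call, 10 gained one and 22 changed sign, and none of those 22 was called. These 406 include the stricter adjusted p of 0.01, which changes only the threshold and leaves each difference as it was. With other scalings or weights the sign changed for Kitl at 0.0023 on 1415854_at (array weights), at 0.0031 on 1426152_a_at (quantile normalization) and at -0.0061 and -0.019 on 1448117_at (quantile normalization and cyclic loess), and for Cd44 at -0.012 on 1452483_a_at (array weights). Without 1 array, the differences that changed sign ran from -0.028 to 0.12 for Edn3 1421136_at, from -0.41 to 0.015 for Kit 1452514_a_at, from -0.017 to 0.28 for Met 1422990_at, from -0.15 to 0.072, -0.02 to 0.18, -0.13 to 0.068 and -0.13 to 0.17 for Kitl 1415854_at, 1415855_at, 1426152_a_at and 1448117_at, and from -0.19 to 0.017, -0.077 to 0.0083 and -0.04 to 0.08 for Cd44 1423760_at, 1443265_at and 1452483_a_at. The replicate numbers do not pair the samples by the labels, and same-numbered old and young arrays had correlations of their deviations from the group means of 0.137, 0.0753 and 0.00782. With the replicate block, the adjusted p was 0.00522, 0.0546 and 0.0565 for Ednrb 1423594_a_at, 1426314_at and 1437347_at, 0.0556 for Sox10 1451689_a_at and 0.0420 for Nrp2 1426528_at.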
